A study of Mus musculus with 24 samples.

Results

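Ageing of the hippocampus was examined in male *bArKO* mice, which lack aromatase in the brain, by comparing 3 libraries from 24-month-old males with 3 libraries from 6-month-old males. These 6 libraries, each from a different mouse, were chosen by their labels (male, *bArKO*, 24mo or 6mo) out of 24 libraries in all. The series holds 8 groups of 3, formed by age (6mo or 24mo), sex (male or female) and genotype (*bArKO* or Control). All mice were C57BL/6J carrying the floxed aromatase gene (*Arom* fl/fl); *bArKO* mice also carried *Nestin-Cre*, and Control mice, age-matched littermates, carried *Arom* fl/fl alone. *Nestin-Cre* recombines in cells of the neural lineage, so microglia and blood vessels of a *bArKO* hippocampus would keep the intact gene. This was not tested here. Old and young *bArKO* males share this genotype, and the comparison between them is therefore one of age within aromatase loss.

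Aromatase converts androgens to estrogens, and in males brain estrogen is made locally from circulating testosterone. Ageing of the rodent hippocampus is known for higher levels of complement and microglial genes, for a slow further accumulation of myelin, which oligodendrocytes wrap around axons, and for fewer newborn granule neurons in the dentate gyrus. Bulk RNA from whole tissue reports the sum over all of these cell types, and fewer or more cells of a type cannot be told apart from less or more RNA per cell.

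Total counts were 8536123 to 11366328 in the old libraries and 9918187 to 10874661 in the young ones, against 7615391 to 18872054 over all 24. A gene without a count was under 0.344 CPM (read counts relative to library size, scaled with TMM factors) in the shallowest of the 6 libraries, taking 3 counts as the floor. *Prox1*, a transcription factor of dentate granule cells, was at 114 to 191 CPM and *Neurod6*, of pyramidal neurons, at 142 to 212 CPM in the 6 libraries. The 7 pineal markers summed to 11 CPM at most. *Cyp19a1*, the aromatase gene (ENSMUSG00000032274, chr9:54072601-54175394 of GRCm39), had 0, 0 and 2 counts in the old libraries and 2, 0 and 0 in the young ones, and no more than 3 in any of the 24, which is too few counts to show the deletion. Libraries stood apart for tissue that borders the hippocampus: the 13 choroid plexus markers summed to 2229 CPM in old replicate 2 and to between 101 and 191 CPM in the other 5 libraries.

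Between old and young *bArKO* males, 4 genes were called by edgeR's quasi-likelihood test, and all 4 rose with age. A gene counted as called when its log2 fold change exceeded 0.5 in size and its p-value, adjusted by Benjamini-Hochberg over the 15693 genes tested, was under 0.05, so the called share was 0.0255% higher and 0% lower. The complement gene *C4b* and the vesicle trafficking gene *Sytl2* were among them, together with the long noncoding RNA *Gm36855* and the identifier ENSMUSG00000095041. Before adjustment, 1213 genes were higher (7.73%) and 842 lower (5.37%) in old libraries at p under 0.05. DESeq2, fitted to the same 24 libraries with the same thresholds, called 77 genes higher (0.62%) and 17 lower (0.137%) among the 12413 genes to which it gave an adjusted p-value, and 3 of the 4 edgeR calls were among these 94 (DESeq2 gave *Gm36855* no adjusted p-value). Over all genes tested, all 3 old libraries lay above all 3 young ones for 11.1% of genes and below them for 10.3%.

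*C4b* (ENSMUSG00000073418, chr17:34947354-34962912, minus strand) encodes complement component 4, which tags surfaces for removal by phagocytes. Its level was 132, 106 and 81.8 CPM in the old libraries and 37.6, 44.5 and 36.3 CPM in the young ones. Every old library was thus well above every young one, although the old libraries spread more (107 ± 24.8 against 39.5 ± 4.41 CPM, mean ± SD, n = 3 each). The log2 fold change was 1.43 (SE 0.22) with an edgeR adjusted p of 0.00706. Male controls gave 149, 103 and 100 CPM at 24 months and 47.5, 32.2 and 53.8 CPM at 6 months, a log2 fold change of 1.40 (SE 0.21), and the difference between the 2 genotypes' age effects was 0.04 (SE 0.30; edgeR adjusted p = 1.00). The adjacent copy *C4a*, added after its values were seen, is nearly identical in sequence, so reads may have been shared between the 2 genes by the counting. It had 13, 12 and 11 counts in old libraries and 3, 3 and 1 in young ones, far fewer than the 355 to 1481 counts of *C4b*.

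The 250 bases before the *C4b* start are shown because *C4b* was the named gene with the largest called change in a protein-coding gene. They were read from GRCm39 on the minus strand, chr17:34962913-34963162, with the E-box letters CACGTG in capitals.
C4b: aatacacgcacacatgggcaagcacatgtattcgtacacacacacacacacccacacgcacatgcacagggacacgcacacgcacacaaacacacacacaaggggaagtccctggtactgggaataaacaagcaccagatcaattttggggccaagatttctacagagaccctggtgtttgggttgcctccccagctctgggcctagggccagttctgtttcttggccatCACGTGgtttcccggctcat
The letters CACGTG, which read the same on both strands, begin 20 bases before the start. They occur in the same window of 7.56% of the 14094 protein-coding genes tested.

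*Sytl2* (ENSMUSG00000030616, chr7:89951453-90059927) encodes a synaptotagmin-like protein that binds Rab27 on vesicles bound for the plasma membrane. It was at 37.2, 37.4 and 37 CPM in the old libraries and 23.1, 19.8 and 24.3 CPM in the young ones, so the old libraries were nearly equal to each other and clear of the young ones. The log2 fold change was 0.73 (SE 0.12; edgeR adjusted p = 0.0133). Male controls were at 38, 34.2 and 39.2 CPM when old and 27.5, 28.3 and 34.2 CPM when young. The age effect differed between the genotypes by 0.42 (SE 0.16) at an unadjusted edgeR p of 0.0164 that did not survive adjustment over all genes (1.00).

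ENSMUSG00000095041, which the GENCODE annotation used here does not list and which is therefore given without a name or position, showed the smallest p-value of all genes. Its level was 83.6, 98.0 and 93.6 CPM in old libraries and 29, 23 and 28.2 CPM in young ones, with a log2 fold change of 1.78 (SE 0.17; edgeR adjusted p = 3.70e-06). *Gm36855* (ENSMUSG00000111110, chr9:43417122-43432855, minus strand) is a long noncoding RNA of low abundance, with 34, 25 and 25 counts in the old libraries and 6, 7 and 4 in the young ones. Its log2 fold change was 2.27 (SE 0.39; edgeR adjusted p = 0.0216). In male controls both were also above the young level in each old library, by 1.19 (SE 0.16) and 1.00 (SE 0.33) on the log2 scale. Leaving out 1 of the 6 libraries at a time kept the call for ENSMUSG00000095041 each time, lost that for *C4b* without old replicate 2 (adjusted p = 0.0522), young replicate 1 (0.0774) or young replicate 3 (0.0746), and lost that for *Sytl2* in 5 of 6 cases (0.05 to 0.127, kept at 0.0366 without old replicate 1) and for *Gm36855* in all 6 (0.0523 to 0.142). The fold changes stayed within 1.26 to 1.59, 0.65 to 0.80 and 2.11 to 2.41.

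**Figure D1:**
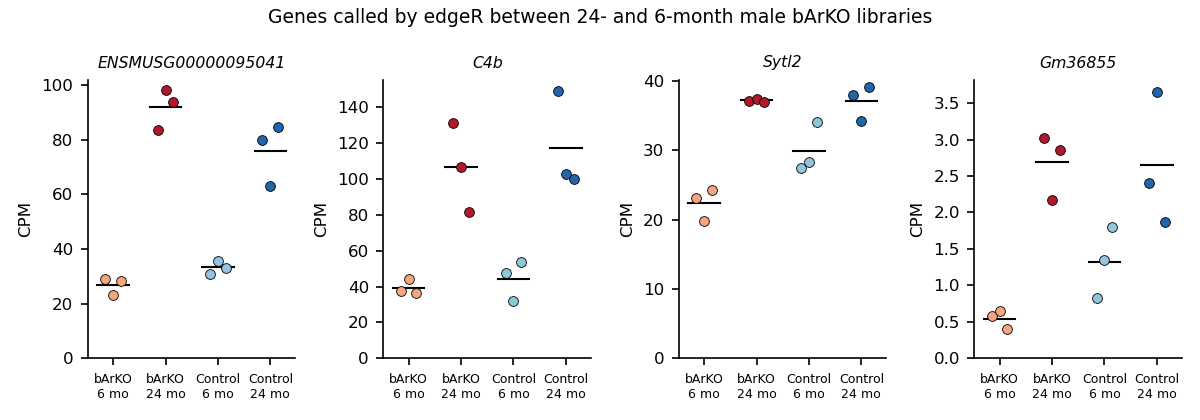
CPM of the 4 genes called by edgeR in each of the 12 male libraries (points), by genotype and age, with the mean of each group as a bar. In each panel the 3 old *bArKO* libraries lie above the 3 young ones, and for all but *C4b* the young *bArKO* libraries are also below all 3 young Control libraries.

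Genes of mature oligodendrocytes lay on the higher side in old *bArKO* males. Among 27 myelin protein genes, all tested, edgeR called 0, but 22 were higher at an unadjusted p-value under 0.05 against 7.73% of all genes, none was lower, and 20 had all old libraries above all young ones against 11.1%. Their median log2 fold change was 0.55, against 0.014 over all genes. DESeq2 called 7 of the 27 higher, against 0.62% of the genes it adjusted: *Mbp*, *Gjb1*, *Gjc3*, *Aspa*, *Hapln2*, *Plekhb1* and *Bcas1*. In male controls 3 of 27 were higher at an unadjusted p-value under 0.05 (3.61% of all genes) and 1 lower (3.03%), with a median of 0.13. For every list below, the shares of all genes at this threshold were 7.73% higher and 5.37% lower in *bArKO* males. In male controls they were 3.61% and 3.03%.

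*Mbp*, which encodes the basic protein that compacts the myelin membrane, was at 5810, 5424 and 5011 CPM in the old libraries and 3710, 2340 and 3090 CPM in the young ones. The groups did not overlap, and young replicate 2 was the lowest. The log2 fold change was 0.83 (SE 0.20), with an edgeR adjusted p of 0.0927 and a DESeq2 adjusted p of 0.0405. *Mog*, on the outermost myelin surface, was at 62.2, 59.7 and 55.2 CPM against 57.7, 37.2 and 40.8 CPM, and here young replicate 1 reached into the old range.

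The 2 connexins that couple oligodendrocytes or their myelin layers showed the same order. *Gjb1*, the connexin of paranodal myelin, was at 20.1, 18.4 and 18.4 CPM in old libraries and 10.8, 9.01 and 10.2 CPM in young ones, a log2 fold change of 0.92 (SE 0.21; DESeq2 adjusted p = 0.012). *Gjc3*, a further connexin, was at 65.9, 70.8 and 57.2 CPM against 43.6, 30.6 and 42 CPM (log2 fold change 0.74; DESeq2 adjusted p = 0.0431). *Aspa*, which releases acetate from N-acetylaspartate for lipid synthesis, had a log2 fold change of 0.81, and *Hapln2*, a link protein at the nodes of Ranvier, one of 0.93 (DESeq2 adjusted p = 0.0204 for both). *Bcas1*, a marker of oligodendrocytes that have begun to myelinate, was at 341, 314 and 297 CPM against 225, 130 and 190 CPM. *Mobp* and *Mag*, further myelin proteins chosen after their values were seen, had log2 fold changes of 0.82 and 0.61 without overlap between the groups.

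Among 15 tested late oligodendrocyte genes, 11 were higher at an unadjusted p-value under 0.05 (7.73% of all genes) and none lower. Their median log2 fold change was 0.38, and DESeq2 called 5 (0.62% of the genes it adjusted). In male controls 4 of the 15 were higher at that threshold (3.61% of all genes) and the median was 0.25. *Tmem63a*, a mechanically gated ion channel needed for myelination, was at 38.1, 43.2 and 33.1 CPM in old libraries and 23.7, 18.3 and 22.1 CPM in young ones (log2 fold change 0.84; DESeq2 adjusted p = 0.00153). *Il33*, an alarmin cytokine held in oligodendrocyte nuclei, was at 102, 88.4 and 85.6 CPM against 64.9, 47.1 and 52.9 CPM (0.75; DESeq2 adjusted p = 0.00735). The iron carrier *Trf* (0.73), the lipid carrier *Apod* (0.70) and *Prr18* (0.83) were the other 3. *Klk6*, a protease of mature oligodendrocytes, was at 4.88, 2.52 and 4.58 CPM against 1.15, 1.01 and 1.43 CPM, with a log2 fold change of 1.73 and an edgeR adjusted p of 0.12.

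Of 11 oligodendrocyte transcription factors, 5 were higher at an unadjusted p-value under 0.05 and none lower, with a median log2 fold change of 0.24; in male controls 2 were higher and 1 lower, with a median of 0.0025. A gene that is no transcription factor was taken off this list after values were seen, so its counts are a description. *Sox10*, which directs the whole oligodendrocyte programme, was at 60.6, 59.9 and 65.8 CPM in old libraries and 44.6, 35.9 and 40.9 CPM in young ones (0.62; DESeq2 adjusted p = 0.013). *Nkx6-2*, a homeobox factor of myelinating cells, was at 19.4, 11 and 9.97 CPM against 6.82, 5.15 and 7.46 CPM (1.07; DESeq2 adjusted p = 0.0204). *Olig1* and *Olig2* had log2 fold changes of 0.24 and 0.22 and overlapping groups. Of 12 genes for myelin lipid synthesis 2 were higher at that threshold and none lower (median 0.33; 1 to 4 higher with 1 library left out; median -0.05 in male controls), and *Ugt8a*, *Fa2h* and *Gal3st1*, which build galactosylceramide and sulfatide, had log2 fold changes of 0.38, 0.37 and 0.42. *Gal3st1* was the one of these 3 at an unadjusted p-value under 0.05 (0.0312).

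Genes of oligodendrocyte precursors did not share this direction. Of 14 tested, 1 was higher and 1 lower at an unadjusted p-value under 0.05, and the median log2 fold change was 0.005. With 1 library left out, 0 to 2 were higher and 1 lower, with medians of -0.0188 to 0.0151. *Pdgfra*, the growth factor receptor that marks precursors, was at 70.9, 61.8 and 58.4 CPM in old libraries and 64.4, 64.4 and 63.5 CPM in young ones, and *Cspg4* (NG2) at 20.9, 22.7 and 22.2 CPM against 20.6, 21.8 and 22.7 CPM. The lower gene was *Gpr17*, a receptor of the stage between precursor and myelinating cell, at 25.1, 32.8 and 38.8 CPM against 63.3, 36 and 48.0 CPM (log2 fold change -0.61; DESeq2 adjusted p = 0.037), with 1 old library above the lowest young one. Its log2 fold change was -0.67 in male controls.

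Promoters are shown for 4 of the 14 oligodendrocyte genes that DESeq2 called higher. They were chosen because they hold the core letters recognised by SOX factors such as the *Sox10* product. The letters searched were ACAAAG and ACAATG on both strands, in the 250 bases before the start of the canonical transcript in GRCm39, and matches are in capitals. The windows are chr17:8558931-8559180 (plus strand) for *Prr18*, chr3:87934819-87935068 (minus strand) for *Hapln2*, chr7:100306161-100306410 (minus strand) for *Plekhb1* and chr5:137961395-137961644 (minus strand) for *Gjc3*.
Prr18: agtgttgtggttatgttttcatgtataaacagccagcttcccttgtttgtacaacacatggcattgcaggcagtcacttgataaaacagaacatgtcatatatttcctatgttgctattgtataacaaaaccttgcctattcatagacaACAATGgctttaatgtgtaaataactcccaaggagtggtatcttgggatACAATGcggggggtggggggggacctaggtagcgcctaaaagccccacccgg
Hapln2: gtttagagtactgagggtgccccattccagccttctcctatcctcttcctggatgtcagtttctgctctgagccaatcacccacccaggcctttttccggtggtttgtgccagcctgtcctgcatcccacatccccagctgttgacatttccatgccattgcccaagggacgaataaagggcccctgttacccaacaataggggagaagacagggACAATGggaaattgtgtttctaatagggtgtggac
Plekhb1: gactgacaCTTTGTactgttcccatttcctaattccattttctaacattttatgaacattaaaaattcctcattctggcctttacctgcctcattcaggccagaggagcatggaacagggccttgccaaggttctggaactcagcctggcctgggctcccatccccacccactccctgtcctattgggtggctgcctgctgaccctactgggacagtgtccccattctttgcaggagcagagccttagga
Gjc3: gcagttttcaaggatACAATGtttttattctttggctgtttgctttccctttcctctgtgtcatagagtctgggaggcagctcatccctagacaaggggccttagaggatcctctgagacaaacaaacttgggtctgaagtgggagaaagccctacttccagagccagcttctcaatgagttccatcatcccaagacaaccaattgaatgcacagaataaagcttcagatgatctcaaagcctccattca
In *Plekhb1* the match lies on the other strand and appears as CTTTGT. Such letters occurred in 13 of 27 myelin protein promoters (48.1%), in 5 of 15 late oligodendrocyte promoters (33.3%) and in 18.9% of the 14094 protein-coding genes tested. The promoters of *Gjb1*, *Sox10*, *Aspa*, *Bcas1*, *Nkx6-2* and *Il33* held none in this window. These shares are a description of the letters, without a test.

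The level of the myelin list was also taken in single libraries. The mean log2(CPM + 0.5) over the 27 genes was 6.90, 6.85 and 6.71 in old *bArKO* libraries and 6.53, 6.03 and 6.27 in young ones, and 7.0, 6.70 and 6.60 in old and 6.42, 6.61 and 6.84 in young male controls. Old *bArKO* libraries were thus within the range of old controls, and 2 of the 3 young *bArKO* libraries were below every young control. At 6 months the 27 genes had a median log2 fold change of -0.35 between *bArKO* and Control, with 13 lower at an unadjusted p-value under 0.05 against 2.83% of all genes; this comparison uses the same young *bArKO* libraries as the comparison by age. At 24 months the median was 0.04. edgeR called 0 genes between *bArKO* and Control males at either age, while 566 genes at 6 months and 393 at 24 months were under 0.05 before adjustment.

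Young replicate 2, the lowest for myelin, was also the highest of the 6 for the 13 meningeal and fibroblast markers (248 CPM summed, against 76.0 to 232 CPM in the others). It was the lowest for 7 markers of CA1 pyramidal cells, which summed to 304 CPM there and to between 579 and 848 CPM in the other 5. Without it the median over the myelin list was 0.45 with 16 of 27 higher at an unadjusted p-value under 0.05, and over the 6 libraries left out in turn these ranged from 0.45 to 0.68 and from 16 to 25. The count of DESeq2 calls over all genes fell from 94 to 18 without young replicate 2 and to 31 without old replicate 2, and 13 and 29 of those were among the 94. The part of tissue composition in these values was not tested.

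**Figure D2:**
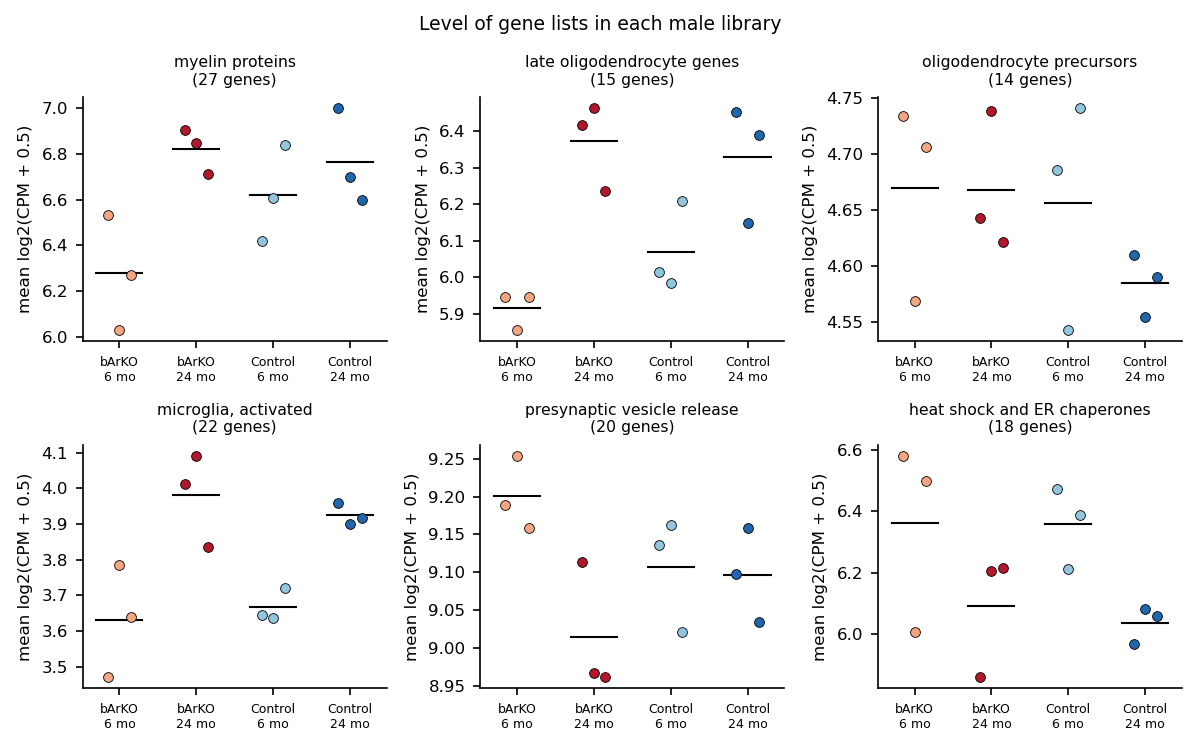
Mean log2(CPM + 0.5) of 6 gene lists in each male library (points; bars are group means; the axes do not start at 0). Old *bArKO* libraries are above young ones for the myelin protein and late oligodendrocyte lists, overlap with them for precursors, and lie below them for presynaptic genes.

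Genes of activated microglia and complement lay on the higher side in old *bArKO* males. Of 22 tested genes of activated microglia, 8 were higher and 1 lower at an unadjusted p-value under 0.05, and the median log2 fold change was 0.35 in both *bArKO* and control males. *Ctss*, a lysosomal protease that cuts invariant chain, was at 156, 132 and 132 CPM in old libraries and 95.8, 97.4 and 101 CPM in young ones (0.51; edgeR adjusted p = 0.0825, DESeq2 adjusted p = 0.00699). The lectin *Clec7a* was at 2.31, 2.52 and 2.86 CPM against 0.48, 0.64 and 1.33 CPM, a log2 fold change of 1.65 (edgeR adjusted p = 0.122). *Itgax* and *Cst7*, further markers of this state, were at 1.07 CPM at most in the 6 libraries. *Lgals3*, chosen after its values were seen, was at 2.57, 2.87 and 2.18 CPM against 1.25, 0.92 and 0.92 CPM, with a log2 fold change of 1.30 in *bArKO* and -0.41 in control males (difference between genotypes not called by edgeR).

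Of 16 homeostatic microglial genes tested, 5 were higher and none lower at an unadjusted p-value under 0.05, and the median log2 fold change was 0.20, against 0.32 in male controls. Leaving out 1 library gave 2 (without old replicate 1), 3 (without old replicate 2 or young replicate 1) or up to 5 higher and medians of 0.11 (without young replicate 1) to 0.27. *P2ry12*, the purine receptor that guides microglial processes, was at 66.9, 57.0 and 55.3 CPM in old libraries and 43.9, 54.0 and 57.1 CPM in young ones. *Tmem119* was at 37, 35.7 and 36.3 CPM against 36.2, 37 and 36.7 CPM, so that the ages overlapped for both genes.

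Of 14 complement genes tested, *C4b* among them and *C4a* not on the list, 4 were higher at an unadjusted p-value under 0.05 and none lower (median 0.30). Only 1 was higher without old replicate 1, and 2 without young replicate 1 or young replicate 3. *C1qa*, a chain of the protein that starts the classical pathway, was at 76.8, 72.0 and 68.9 CPM against 57.3, 63.4 and 58.5 CPM (log2 fold change 0.28), and *C1qb* at 82.3, 79.1 and 64.3 CPM against 57.6, 65.4 and 55.5 CPM (0.34). Of 31 lysosomal genes 9 were higher and none lower (median 0.15; -0.00087 in male controls), and 5 were higher without old replicate 2 (median 0.09), while *Lamp1* and *Ctsd* had log2 fold changes of 0.13 and 0.16 that did not pass any test.

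Interferon and antigen presentation genes held no such difference. Of 19 tested interferon response genes, none was higher and none lower at an unadjusted p-value under 0.05, and their median log2 fold change was -0.19, which became 0.29 without young replicate 2. *Ifit3*, an interferon-induced antiviral protein, was at 3.64, 4.88 and 4.47 CPM in old libraries and 2.79, 8.55 and 5.01 CPM in young ones, so that young replicate 2 alone was above the rest. None of 17 antigen presentation genes passed that threshold either (median 0.13), but 2 were higher without young replicate 2 (median 0.36) and 1 without old replicate 3, and the median was 0.06 without young replicate 1. *Ighm*, the immunoglobulin heavy chain mu gene, was at 37, 36.3 and 38.8 CPM against 19.4, 30.1 and 26.1 CPM. The groups did not overlap, but the log2 fold change of 0.57 (SE 0.26) had an adjusted p of 0.351 by edgeR and 0.276 by DESeq2. *Igkc*, the light chain constant gene, was at 1.6, 2.26 and 0.57 CPM against 0, 2.67 and 0.51 CPM, and *Jchain* was at 0.51 CPM at most.

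Astrocyte markers were close to level, with 2 of 16 higher at an unadjusted p-value under 0.05, none lower, and a median log2 fold change of 0.09. With 1 library left out, 0 (without young replicate 1) to 3 were higher (1 without old replicate 1 or old replicate 3), with medians of 0.03 to 0.13. *Aldh1l1*, a folate enzyme, was 1 of the 2 (71.6, 70.1 and 75.7 CPM against 58.9, 64.5 and 65.0 CPM; 0.21). The glutamate transporter *Slc1a2* was at 6305, 5794 and 5355 CPM in old libraries and 5314, 5680 and 6371 CPM in young ones, and the water channel *Aqp4* had a log2 fold change of -0.17. Among 17 genes of reactive astrocytes 4 were higher and none lower (median 0.21), and 2 were higher without old replicate 1 or young replicate 3. *Gfap*, the intermediate filament of these cells, was at 1119, 954 and 748 CPM against 688, 642 and 688 CPM, with a log2 fold change of 0.48 (SE 0.12; edgeR adjusted p = 0.0927, DESeq2 adjusted p = 0.0204), just short of the fold threshold, and of 0.44 in male controls. *Vim* had 0.32 and *Serpina3n* -0.11, both with overlapping groups.

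**Figure D3:**
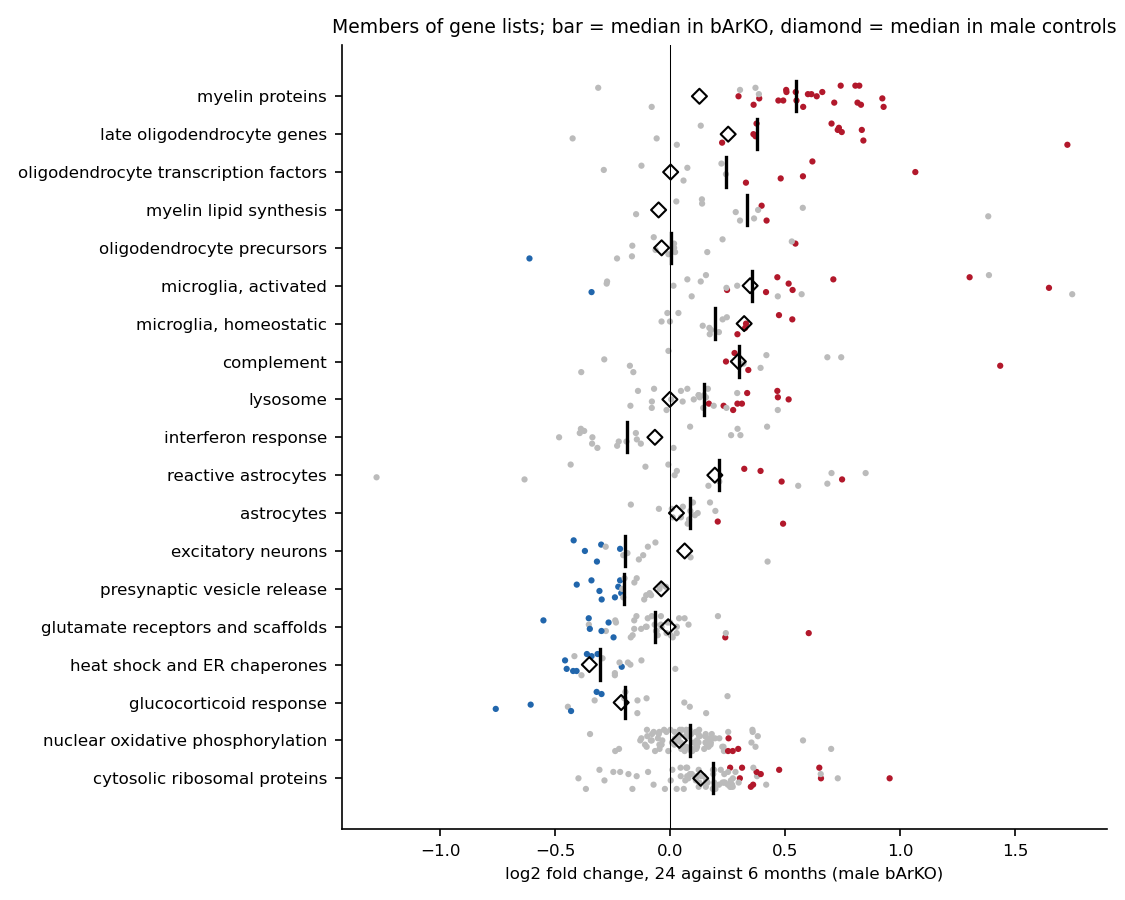
Log2 fold change between old and young male *bArKO* libraries for each tested member of 19 gene lists (points; red, higher and blue, lower at an unadjusted edgeR p-value under 0.05; grey, others). Black bars are list medians and open diamonds are the same medians in male controls. The myelin protein median is 0.55 in *bArKO* and 0.13 in controls. With all libraries the chaperone medians are -0.30 in *bArKO* and -0.35 in controls.

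Presynaptic, excitatory and dentate genes lay on the lower side in old *bArKO* males. Of 20 genes of presynaptic vesicle release, all 20 had a negative log2 fold change, 8 were lower at an unadjusted p-value under 0.05 (5.37% of all genes) and none was higher. The median was -0.20, against -0.04 in male controls. *Syt1*, the calcium sensor of release, was at 1256, 1216 and 1053 CPM in old libraries and 1429, 1404 and 1252 CPM in young ones. *Syp*, synaptophysin, was at 645, 596 and 599 CPM against 749, 727 and 696 CPM without overlap (log2 fold change -0.24; edgeR adjusted p = 0.373). *Syn2*, a synapsin that tethers vesicles, chosen after its values were seen, was at 692, 506 and 584 CPM against 738, 867 and 756 CPM (-0.41; edgeR adjusted p = 0.090, DESeq2 adjusted p = 0.0103, under the fold threshold). The mean log2(CPM + 0.5) of the 20 genes was 9.11, 8.97 and 8.96 in old and 9.19, 9.25 and 9.16 in young *bArKO* libraries, and between 9.02 and 9.16 in the 6 male control libraries. Without young replicate 2 the count was 2 and the median -0.13; without old replicate 2 they were 3 and -0.15, and the count was 4 without old replicate 3 and 5 without young replicate 1.

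Markers of excitatory neurons gave 5 of 14 lower and none higher at that threshold, with a median of -0.20 in *bArKO* and 0.06 in control males. Without young replicate 2 there was 1 lower (median -0.13), and without old replicate 2 or old replicate 3 there were 3, with 1 higher in the latter case. All 7 markers of CA1 pyramidal cells had a positive log2 fold change (median 0.32; 0.19 in male controls), 1 of them at an unadjusted p-value under 0.05 and none with separate groups. As a mean over the 7 genes, log2(CPM + 0.5) came to 6.14, 6.44 and 5.86 in old libraries and 6.08, 4.94 and 6.19 in young ones, so that young replicate 2 alone was low and the other 5 overlapped. Of 12 markers of CA2 and CA3 pyramidal cells 2 were lower and none higher (median -0.12), and of 16 of inhibitory neurons 2 were higher and none lower (median -0.04). Of 13 GABA-A receptor genes 1 was higher and 3 were lower (median -0.11). *Neurod6*, a transcription factor of pyramidal neurons, was at 182, 184 and 142 CPM against 210, 212 and 204 CPM (log2 fold change -0.30). *Camk2a* and the vesicular glutamate transporter *Slc17a7* had -0.10 and -0.20 with overlapping groups. Of 41 glutamate receptor and scaffold genes, 2 were higher and 6 lower (median -0.07); without old replicate 2 or young replicate 2 there was 1 lower. *Neto1*, an auxiliary subunit of kainate and NMDA receptors, was the one that DESeq2 called lower, at 140, 110 and 97.0 CPM against 146, 203 and 161 CPM (-0.55; DESeq2 adjusted p = 0.0265). The core subunits *Gria1* and *Grin1* and the scaffold *Dlg4* had log2 fold changes of -0.13, -0.05 and -0.01.

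Of 34 immediate early genes, 7 were lower and none higher at an unadjusted p-value under 0.05, with a median of -0.09. Without old replicate 3 or young replicate 1 there were 3 lower. The median ran from -0.236 to -0.0165 with 1 library left out. *Nr4a3*, an orphan nuclear receptor induced by activity, was at 88.7, 88.0 and 81.6 CPM in old libraries and 138, 131 and 139 CPM in young ones, with tight and separate groups (log2 fold change -0.66, SE 0.14; edgeR adjusted p = 0.0825, DESeq2 adjusted p = 0.00911). *Fos*, *Egr1* and *Arc* overlapped between the ages, with log2 fold changes of 0.16, -0.23 and -0.08. All 9 dentate granule cell markers had a negative log2 fold change, 2 of them at an unadjusted p-value under 0.05 (median -0.30, and -0.31 in male controls). That count was 0 without old replicate 2, young replicate 1 or young replicate 2. The dentate median ran from -0.391 to -0.171 with 1 library left out. *Prox1* was at 130, 114 and 146 CPM against 156, 191 and 141 CPM. Of 12 genes of newborn neurons 3 were lower and 1 higher. *Sox11*, a factor of immature neurons, was at 9.77, 10.1 and 16.3 CPM against 17.3, 18.7 and 13.7 CPM (-0.47), and the microtubule protein *Dcx* at 10.03, 8.53 and 10.7 CPM against 10.4, 12.7 and 10.7 CPM. Of 9 tested genes of dividing cells, which are rare in the adult hippocampus, 1 was lower; *Mki67* did not exceed 3.40 CPM in any of the 6 libraries.

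The 12 genes with the next smallest p-values, a named symbol and separate groups had edgeR adjusted p-values of 0.0825 each. *Tmem63a*, *Il33* and *Ctss* are described above. *Cdc42ep2*, a Cdc42 effector that shapes the actin skeleton, was at 10.8, 11.2 and 11.8 CPM in old libraries and 5.76, 5.61 and 6.13 CPM in young ones, with a log2 fold change of 0.95 in *bArKO* and 0.15 in control males. *Cyp27a1*, which hydroxylates cholesterol, was at 5.42, 4.70 and 3.90 CPM against 2.50, 2.39 and 1.74 CPM (1.08), and *Fah*, the last enzyme of tyrosine breakdown, had 0.60. *Rnf207* was at 2.57, 2.87 and 2.29 CPM against 0.48, 0.55 and 0.72 CPM (2.14), while its log2 fold change in male controls was -0.18. *Olfml1* (0.59), *Lbh* (0.42) and *AI480526* (1.42) were the others with higher levels in old libraries. The cytokine precursor gene *Il16* was lower, at 35.5, 28.9 and 25.9 CPM against 45.3, 50.3 and 41.9 CPM (-0.60, and 0.04 in male controls), as was *Mmd* (-0.40).

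Markers of the medial habenula, a small nucleus next to the hippocampus, had low levels, and none was called by edgeR. DESeq2 gave no adjusted p-value to *Chrna3*, *Chrnb3*, *Pou4f1*, *Tac2* or *Gpr151*, so it could not call them. Of 7 such markers, 5 were higher at an unadjusted p-value under 0.05 and none lower, and the median log2 fold change was 2.06 in *bArKO* and -0.51 in control males. The direction was not shared by all: 1 of the 7 had a log2 fold change of -0.35, with all old libraries below all young ones. Without old replicate 3 there were 3 higher. *Chrna3* and *Chrnb3*, nicotinic acetylcholine receptor subunits that are on both the habenula and the nicotinic receptor lists, were at 1.95, 3.31 and 3.90 CPM against 0.67, 0.09 and 1.43 CPM, and at 0.89, 2.61 and 2.18 CPM against 0.29, 0.09 and 0.41 CPM. Their log2 fold changes were 2.06 (SE 0.67) and 2.81 (SE 0.80), with edgeR adjusted p-values of 0.172 and 0.125. *Pou4f1*, a transcription factor of habenular neurons, was at 0.27, 3.05 and 6.30 CPM against 0.19, 0.18 and 0.51 CPM, and the neuropeptide gene *Tac2* at 2.04, 6.88 and 4.58 CPM against 0.86, 0.64 and 2.04 CPM. Old replicates 2 and 3 were the high ones for *Chrna3*, *Chrnb3*, *Pou4f1*, *Tac2* and *Gpr151*, but not for *Chrnb4*. Old replicate 1 was close to the young libraries for *Pou4f1*, *Tac2* and *Gpr151*. Of 8 nicotinic receptor genes tested, 2 were higher, *Chrna3* and *Chrnb3*; *Chrnb4*, the third of the habenular subunits, was at 1.15, 1.04 and 0.69 CPM against 0.10, 0.18 and 0.31 CPM. The part of habenular tissue in these values was not tested.

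Among *bArKO* males, choroid plexus genes differed by 1 library. *Ttr*, transthyretin, was at 66.7, 1985 and 132 CPM in old libraries and 60.8, 53.1 and 62.7 CPM in young ones. The median log2 fold change of 13 markers was 1.73 with all 6 libraries, 0 of 13 at an unadjusted p-value under 0.05, and 0.25 without old replicate 2. Over the 6 libraries left out in turn, 0 to 2 were higher and the median reached 2.23. In young male controls the 13 markers summed to between 76.0 and 7747 CPM, and their median by age in controls was -2.05. At 6 months all 13 were lower in *bArKO* than in Control at an unadjusted edgeR p-value under 0.05 (2.83% of all genes), with a median of -3.72. For the interaction of age and genotype, 9 of the 13 were under 0.05 (3.38% of all genes). The part of this tissue in the comparisons with controls was not tested.

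**Figure D4:**
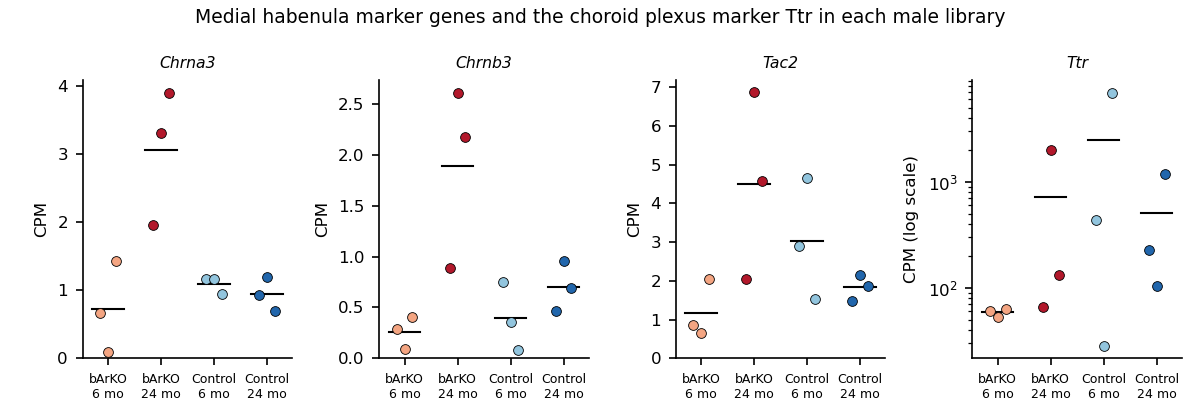
CPM of 3 medial habenula markers and, on a log axis, of the choroid plexus marker *Ttr* in each male library (points; bars are group means). Old *bArKO* replicates 2 and 3 are high for *Tac2*, *Chrna3* and *Chrnb3*, and 1985 CPM in old replicate 2 sets the old *bArKO* mean of *Ttr*.

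Genes of the stress and folding responses lay on the lower side in old males of both genotypes. Of 18 heat shock and endoplasmic reticulum chaperones, 8 were lower at an unadjusted p-value under 0.05 and none higher. The median log2 fold change was -0.30, and in male controls 12 of 18 were lower with a median of -0.35. In females the chaperone median was 0.065 in *bArKO* and 0.0626 in control mice. *Hspa8*, the constitutive Hsp70, was at 166, 182 and 187 CPM in old libraries and 250, 193 and 244 CPM in young ones (-0.36; DESeq2 adjusted p = 0.034), and *Hspa5*, the chaperone of the endoplasmic reticulum, at 203, 329 and 295 CPM against 479, 220 and 435 CPM. Young replicate 2 was the lowest young library for both. Without it 14 of 18 were lower, and without old replicate 1 or young replicate 1 only 3 were, and without young replicate 3 there were 4. The chaperone median ran from -0.478 to -0.185 with 1 library left out. *Hsph1*, chosen after its values were seen, had -0.45 (DESeq2 adjusted p = 0.013). Of 16 glucocorticoid-responsive genes 5 were lower and none higher (median -0.20; -0.21 in male controls). Without young replicate 1 there were 0 lower and 1 higher (median -0.05), without old replicate 3 there were 2 lower and without old replicate 1 there were 3. For *Tsc22d3* young replicate 1, at 143 CPM, was above the other young libraries (58.0 and 76.1 CPM) and the old ones (57.4 to 65.0 CPM).

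Both cold-inducible RNA-binding protein genes were higher. *Cirbp* was at 79.8, 45.2 and 51.1 CPM against 33, 44.8 and 29.5 CPM (log2 fold change 0.71; DESeq2 adjusted p = 0.0298) and *Rbm3* at 17.5, 16 and 14.4 CPM against 9.22, 11.9 and 9.91 CPM (0.63), each at an unadjusted p-value under 0.05, and their log2 fold changes in male controls were 0.69 and 0.82. Of 10 nuclear long noncoding RNAs 4 were higher and none lower, with a median of 0.54; without old replicate 2 or young replicate 1 there were 2. *Neat1*, the scaffold of paraspeckles, was at 125, 137 and 101 CPM against 47.7, 46.7 and 64.7 CPM (1.19, SE 0.29; DESeq2 adjusted p = 0.0421), and *Meg3*, an imprinted transcript, at 559, 687 and 577 CPM against 310, 339 and 405 CPM (0.79; edgeR adjusted p = 0.323). *Malat1* had 0.61 and did not overlap between the ages, but its SE was 0.40.

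Clustered protocadherins, adhesion proteins that give neurons their identity, were 7 higher and 1 lower of 53 tested at an unadjusted p-value under 0.05, against 7.73% and 5.37% of all genes (median -0.02). With 1 library left out, 5 to 7 were higher and 0 (without old replicate 2) to 3 (without young replicate 3) lower, and the median, -0.08 to 0.03, changed sign without old replicate 2 or young replicate 1. DESeq2 called *Pcdhb9*, at 25.9, 22.1 and 29.3 CPM against 15.5, 17.5 and 15.6 CPM (0.67), and *Pcdhb3* (0.70) higher; reads may be shared among these near-identical genes.

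Extracellular matrix genes showed no common direction. Of 44 tested, 4 were higher and 3 lower at an unadjusted p-value under 0.05, and the median log2 fold change was 0.06. Without old replicate 2 there were 9 lower (median -0.21), and without old replicate 1 or young replicate 2 there were 6 higher and 1 lower (medians 0.15 and 0.21); without young replicate 1 there were 2 higher and the median was -0.05. *Sparc*, a collagen-binding matrix protein, was the one that DESeq2 called, at 436, 406 and 672 CPM in old libraries and 323, 352 and 385 CPM in young ones (0.51; DESeq2 adjusted p = 0.0392). *Col1a1*, *Dcn* and *Ogn*, which fibroblasts of the meninges also express, were at 4.97, 15.8 and 6.99 CPM against 7.11, 16 and 10.2 CPM, at 12.5, 33.8 and 9.85 CPM against 14.1, 26.7 and 25.9 CPM, and at 7.99, 18.6 and 5.96 CPM against 7.49, 21.4 and 10.9 CPM. Old replicate 2 and young replicate 2 were the highest of their ages for all 3, and these libraries also had the highest summed meningeal markers of their ages, 232 and 248 CPM.

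None of 16 tested genes of estrogen and steroid signalling differed at an unadjusted p-value under 0.05 (median 0.06). Without old replicate 2 or young replicate 1 there was 1 higher, and leaving out 1 library gave medians of -0.0068 (without old replicate 2) to 0.08. The estrogen receptor *Esr1* was at 1.6, 2.35 and 2.52 CPM against 2.02, 1.75 and 2.45 CPM, and *Esr2* was at 0.26 CPM at most. Nuclear genes of oxidative phosphorylation were almost level, with 4 of 97 higher and none lower and a median of 0.08 (0 higher without old replicate 1, young replicate 1 or young replicate 2), and the 7 mitochondrial-encoded genes tested had a median of 0.13 with none at that threshold. Of 75 cytosolic ribosomal protein genes 11 were higher and none lower (median 0.19; 0.13 in male controls), and 4 were higher without young replicate 2 and 5 without old replicate 1 or young replicate 1. Kinase genes that share the name stem were taken off this list after values were seen, so its counts are a description.

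Whether the effect of age in *bArKO* males differed from that in other groups was tested directly. edgeR called 0 of 15693 genes (0%) for the interaction of age and genotype in males, with 531 (3.38%) at an unadjusted p-value under 0.05 and a smallest adjusted p of 1.00, and DESeq2 found 0 at an adjusted p under 0.05. A looser filter kept every gene of at least 1 count over the libraries together, and so a larger set with very low counts. With it edgeR gave 123 for genotype and 69 for the interaction with sex. The same filter raised the calls by age from 4 to 300. The interaction of age and sex among *bArKO* mice likewise gave 0 by edgeR (0%), with 603 (3.84%) at an unadjusted p-value under 0.05 and a smallest adjusted p of 0.725, and 0 by DESeq2. Within the myelin list 3 of 27 genes had an unadjusted interaction p under 0.05 for genotype. Over all 27, the median difference of the age effect, *bArKO* minus control males, was 0.39 on the log2 scale. Of the 94 genes called by DESeq2 in *bArKO* males, 90 had a log2 fold change of the same sign in male controls, whose libraries are separate, against 64.1% of all genes tested, and edgeR called 3 genes by age in those controls.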

How the data were processed

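Hippocampal RNA was sequenced with a stranded poly(A) kit, and reads were counted per gene. The authors trimmed reads with Trim Galore 0.6.10 and cutadapt 4.2, aligned them with STAR 2.7.9a and deposited raw counts from HTSeq 2.0.2. Their methods name no strand setting for the counting and state that tools ran with defaults where nothing else is given. The labels and methods give 24 months for the old mice, whereas the series design text gives a lower age, and the labels were followed.

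Counts were analysed with edgeR 4.0.16 in R 4.3.3 (TMM scaling, filterByExpr, 1 quasi-likelihood fit over 24 libraries with 1 coefficient per group of 3), with Benjamini-Hochberg adjustment. DESeq2 1.42.0 was the main alternative; others changed scaling, filters, libraries and replicate block, and left out each library. The smallest exact permutation p for 3 against 3 is 0.1. Counting intervals and floors cover counting error only, and p-values measure the spread between these libraries. Of 57186 identifiers, 56594 had a GENCODE symbol (GRCm39), and 15693 were tested. Scripts were tested on simulated data.

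Named genes were those called, the 12 next by p-value with a symbol, at least 1 CPM and separate groups, the first 3 of each list (a few of these are not reported here), list members called by DESeq2, and *C4b*, *Ighm* and *Cyp19a1*; any further gene is marked in the text. The members and lists were chosen with earlier results of these data known.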

Additional observations from a re-analysis of the deposited data

How the results depend on the processing

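The edgeR count of 4 genes became 94 (77 higher, 17 lower) with DESeq2 on 24 libraries, 300 (255 and 45) with genes of at least 1 count in all libraries together, 27 (25 and 2) with edgeR on the 6 libraries alone, 124 (98 and 26) with DESeq2 on those 6, and 7 (5 and 2) on the 12 male libraries; it was 3 with at least 10 counts in every library and 4 with RLE size factors. Leaving out 1 library gave 1 to 9 calls with edgeR and 18 to 71 with DESeq2. The interactions, 0 by edgeR, gave 123 genes (116 and 7) for genotype and 69 (32 and 37) for sex with genes of at least 1 count. The causes of these differences were not tested. The fit with the replicate block called 3 genes; same-numbered libraries had correlations of -0.0472, 0.0569 and 0.047, and 1 of 3 pairs correlated best with its own number, so the numbers were not taken to pair libraries.

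Among 129 named genes, 1572 alternative values kept direction and call, 18 lost the call, 152 gained it and 35 changed sign, all 35 in genes that edgeR did not call. *Pdgfra* was 0.0031 with at least 10 counts; *Slc1a2* was -0.00045 and -0.0026 with DESeq2 on 24 and on 6 libraries and -0.0018 with at least 1 count. Leaving out 1 library gave log2 fold changes of -0.092 to 0.048 for *Pdgfra*, -0.025 to 0.054 for *Cspg4*, -0.11 to 0.16 for *B2m*, -0.62 to 0.29 for *Ifit1*, -0.66 to 0.16 for *Ifit3*, -0.83 to 0.39 for *Isg15*, -0.056 to 0.082 for *Slc1a2*, -0.25 to 0.017 for *Serpina3n*, -0.34 to 0.0047 for *C1ql2*, -0.10 to 0.0040 for *Grin1*, -0.069 to 0.044 for *Dlg4*, -0.061 to 0.50 for *Fos*, -0.27 to 0.11 for *Arc*, -0.91 to 0.11 for *Col1a1*, -0.98 to 0.059 for *Dcn*, -0.93 to 0.26 for *Ogn*, -0.066 to 0.23 for *Esr1*, -0.13 to 2.26 for *Folr1*, -0.15 to 0.87 for *Kl* and -0.090 to 2.57 for *Igkc*. Of the list medians, 372 alternative values stayed within the spread and 24 moved.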

Other observations

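Of the 94 genes that DESeq2 called, 69 were in none of the gene lists; the following were chosen after their values were seen. *Galnt6*, a glycosyltransferase, was at 23.6, 23.9 and 23.4 CPM in old and 17.3, 8.09 and 9.81 CPM in young libraries (log2 fold change 1.01; DESeq2 adjusted p = 0.0103). *S1pr5*, a sphingosine-1-phosphate receptor of oligodendrocytes, was at 22.7, 17.2 and 16.3 CPM against 11.2, 10.6 and 10.7 CPM (0.79), and *Ppp1r14a*, a phosphatase inhibitor, at 19.8, 14.3 and 14 CPM against 9.31, 7.08 and 7.05 CPM (1.04). *Gatm*, the first enzyme of creatine synthesis, was at 201, 202 and 194 CPM against 144, 106 and 130 CPM (0.65). For all 4, the old libraries were above the young ones, and in male controls the log2 fold changes were 0.37, 0.28, 0.38 and 0.18.

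Of the 17 genes that DESeq2 called lower, 4 further ones are given here. *Nectin3*, a synaptic adhesion protein, was at 43.3, 41.9 and 37.8 CPM in old and 59.4, 70.9 and 59.8 CPM in young libraries (-0.63; DESeq2 adjusted p = 0.012), and *Cdh9*, a cadherin of dentate and CA3 neurons, at 34.4, 33.6 and 27.6 CPM against 42.1, 55.1 and 43.1 CPM (-0.55). The Wnt antagonist *Frzb* was at 21.6, 15.9 and 12 CPM against 28.5, 31 and 24.0 CPM (-0.75), and the deubiquitinase *Otub2* at 44.3, 53.1 and 54.1 CPM against 76.0, 64.5 and 76.1 CPM (-0.52). None of the 8 was called by edgeR, whose adjusted p-values were 0.0825 to 0.0925.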
